A study of Rattus norvegicus with 24 samples.

Results

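The genes of 5 nuclear regulators and zinc finger proteins, Myt1l, Csrnp3, Zmat4, Zfp365 and Zfp871, were followed in the rostral posterior hypothalamic (rPH) region of rats given repeated loud noise. They are 5 of the 32883 genes of the count table, and all 5 were among the 16202 that passed the filter on low counts. The genes were chosen by their places in the study's own lists of differentially expressed genes for the C versus RS7, AS versus RS7 and AS versus RS3 comparisons, and some also stood in its ranking of transcription factors. In those 3 comparisons their differences were therefore selected on these same rats, and they are given below as a description, without a test.

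The rats were adult male Sprague-Dawley rats from 1 supplier, all handled and placed in sound-attenuating chambers daily. The C group received no loud noise, the AS group 1, the RS3 group 3 and the RS7 group 7 loud noise exposures, with 6 rats per group. All were killed 24 h after their last noise or control exposure, and polyadenylated RNA was sequenced from 1 tissue block per rat. The libraries of rats 20 (C), 18 (AS), 8 (RS3) and 1 (RS7), of lower quality by the methods, were kept out of the tests, which left 5 rats per group.

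The retained libraries held 8087697 to 16947298 counted reads (median 12385781). The 10 most abundant genes took 13.6 to 20.3% of the counts in C rats, 12.4 to 14.7% in AS rats, 12.4 to 14.9% in RS3 rats and 13.1 to 18.8% in RS7 rats. C rat 22 (20.3%), C rat 21 (20.1%) and RS7 rat 4 (18.8%) stood highest among the retained rats, and the left-out rats took 24.9 to 46.3%. Few defining markers of the tissue had an identifier that could be matched to a symbol. Of 8 hypothalamic markers, 4 (Sim1, Avp, Oxt and Lhx9) had a matched identifier. Their summed median was 50.4 CPM (counts scaled to library size, range 16.45 to 234.2) in C rats and 105 (25.63 to 248.8) in AS rats. It was 38.9 (14.61 to 111.2) in RS3 and 26.9 (17.66 to 31.69) in RS7 rats. In C rats the SD of Avp (30.96 ± 34.56 CPM) and of Oxt (47.53 ± 52.27 CPM) exceeded the mean. Within this list Lhx9 went the other way from Sim1, Avp and Oxt, from a mean of 7.56 ± 1.8 CPM in C to 12.65 ± 2.12 CPM in RS7 rats. The thalamic markers Lef1 and Rora, 2 of 6, had summed medians of 90.5, 81.7, 100.8 and 122 CPM in the same order.

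Zinc finger proteins fold short loops around a zinc ion and use them to bind DNA, RNA or other proteins. Myt1l encodes a neuronal CCHC-type zinc finger factor that represses programs of other cell types and helps to hold neuronal identity. Csrnp3 encodes a cysteine- and serine-rich nuclear protein described as a transcriptional activator. Zmat4 belongs to the matrin-type zinc finger genes, Zfp365 encodes a zinc finger protein with coiled coils that is expressed in brain, and Zfp871 encodes a C2H2 zinc finger protein of a large family with many similar copies. Reads shared with similar copies could have been divided in ways the counting does not show, which leaves the level of Zfp871 less certain than those of the other 4 genes.

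The promoters of 2 of the 5 genes, Myt1l and Zfp365, could be matched in RefSeq (build GRCr8), and they are shown because both genes had their highest mean in the RS7 group. Each runs from 250 bases before to 50 bases after the start of the gene, on the plus strand, at chr6:51898832-51899131 for Myt1l and chr20:20664872-20665171 for Zfp365. Both strands were searched for the core AAGTT that factors of the MYT1 family bind. The other motifs searched were TGACG, the short site of cyclic AMP response elements, and the palindrome of the E-box, CACGTG. Capitals mark the only match in each sequence, and no matches overlapped.
Myt1l: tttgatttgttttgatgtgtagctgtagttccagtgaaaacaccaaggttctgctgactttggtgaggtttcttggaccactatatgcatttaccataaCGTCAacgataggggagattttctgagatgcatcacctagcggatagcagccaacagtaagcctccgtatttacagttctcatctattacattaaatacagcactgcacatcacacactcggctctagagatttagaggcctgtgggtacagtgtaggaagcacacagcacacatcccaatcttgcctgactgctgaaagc
Zfp365: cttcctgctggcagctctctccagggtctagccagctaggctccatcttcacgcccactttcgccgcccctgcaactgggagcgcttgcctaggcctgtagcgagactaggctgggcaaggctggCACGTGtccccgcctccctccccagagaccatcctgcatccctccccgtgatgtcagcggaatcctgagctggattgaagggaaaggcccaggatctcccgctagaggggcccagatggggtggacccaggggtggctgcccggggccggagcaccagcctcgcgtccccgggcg

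The stretches differed in composition. The Myt1l promoter had 44.3% G and C and 5 CpG dinucleotides, whereas that of Zfp365 had 67.3% and 16, against a median of 52.3% and 7 over 27457 rat promoters of the same length. The Myt1l stretch held TGACG once, on the opposite strand and therefore read as CGTCA, beginning 151 bases before the start, and 22% of all promoters held that motif on either strand. The Zfp365 stretch held 1 CACGTG, beginning 125 bases before the start, and 6.65% of all promoters held it. Neither held the AAGTT core on either strand, which was present in 39.6% of promoters. These matches are descriptions of the letters and not of bound sites.

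Across the 20 retained rats, the RS7 group had the highest mean level of all 5 genes. From lowest to highest, the means stood in the order AS, C, RS3 and RS7 for Myt1l, Csrnp3, Zmat4 and Zfp871, and in the order C, AS, RS3 and RS7 for Zfp365. The spans between the lowest and the highest rat were narrow for Myt1l (1.31-fold) and widest for Zfp871 (3.65-fold). Levels are CPM with TMM-scaled library sizes and are not corrected for gene length, so they compare rats for 1 gene and not genes with each other. Because the tissue was sequenced in bulk, fewer or more cells of a type and less or more RNA per cell cannot be told apart.

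**Figure D1:**
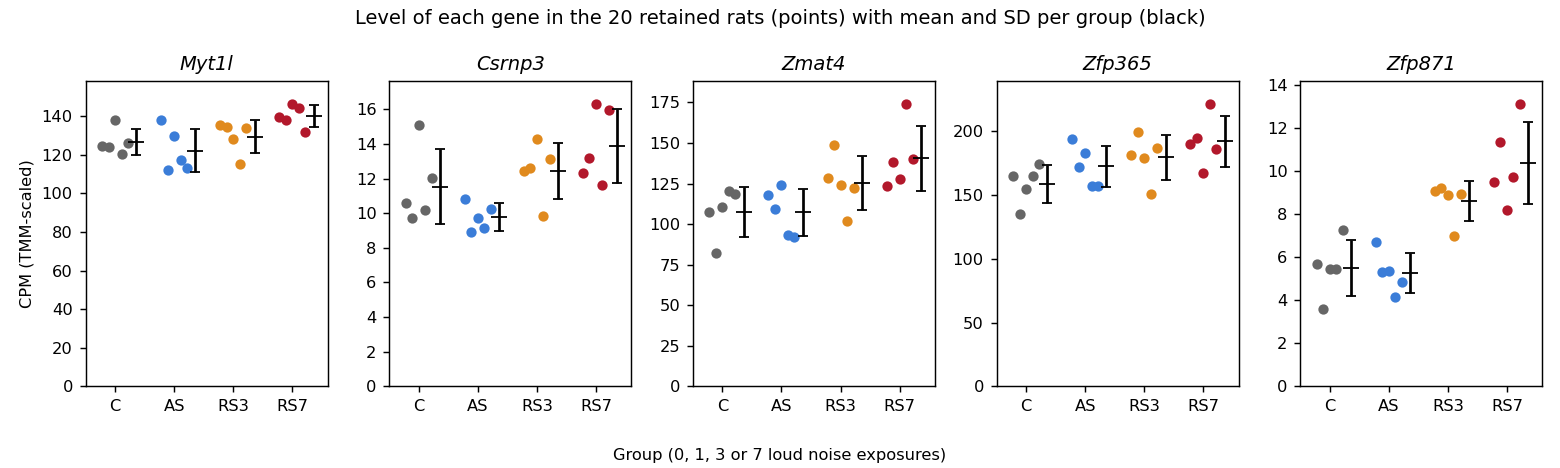
Level of each gene in CPM (vertical axes, starting at 0) in the 20 retained rats, by group (horizontal axes). Each point is 1 rat, and the black bars give the mean and SD of the 5 rats, with the highest mean in the RS7 group in every panel and a gap between the AS and RS3 groups for Zfp871 only.

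Myt1l (ENSRNOG00000004269) rested on 933 to 2290 counts per retained rat. The C rats 19, 21, 22, 23 and 24 had 125, 124, 138, 120.45 and 126 CPM, and the AS rats 13 to 17 had 138, 112, 129.63, 117 and 113 CPM. The RS3 rats 7, 9, 10, 11 and 12 had 136, 134, 128, 115 and 134 CPM, and the RS7 rats 2 to 6 had 139.57, 138, 146, 144 and 132 CPM. The RS7 rats other than rat 6 stood above every C and AS rat, although by little, and the groups overlapped in each comparison. Mean levels were 127 ± 6.58 CPM in C, 122 ± 11.2 in AS, 129 ± 8.43 in RS3 and 140.1 ± 5.72 in RS7 rats (SD, n = 5 each). The log2 fold change was 0.15 ± 0.058 (standard error) from C to RS7 and 0.20 ± 0.0578 from AS to RS7.

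Csrnp3 (ENSRNOG00000005359) was counted 73 to 249 times per rat, so that counting alone gives a coefficient of variation of about 8.08%. The C rats, in the same order, had 10.6, 9.71, 15.1, 10.2 and 12 CPM, and the AS rats had 10.8, 8.89, 9.71, 9.12 and 10.2 CPM. The RS3 rats had 12.4, 12.6, 14.3, 9.86 and 13.1 CPM, and the RS7 rats had 12.3, 13.2, 16.3, 11.6 and 15.9 CPM. All RS7 rats lay above all AS rats, but C rats 22 and 24 and 4 of the RS3 rats reached into the RS7 range. The AS group had the lowest and tightest levels (9.76 ± 0.8 CPM), against 11.5 ± 2.17 in C, 12.5 ± 1.62 in RS3 and 13.9 ± 2.14 in RS7 rats. From AS to RS7 the log2 fold change was 0.50 ± 0.119, and from C to RS7 it was 0.27 ± 0.119.

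Zmat4 (ENSRNOG00000042690), with 616 to 2762 counts per rat, varied more between rats of a group than Myt1l. The C rats had 107, 82, 110.3, 120.45 and 118 CPM, and the AS rats 118, 109, 124, 93.4 and 91.9 CPM. The RS3 rats had 128, 149, 124, 102 and 122 CPM, and the RS7 rats 123, 138, 128, 174 and 140.2 CPM. Every RS7 rat exceeded every C rat, while 1 AS rat overlapped the RS7 group by less than 1 CPM and RS3 rat 11 fell among the C rats. The means were 108 ± 15.4 CPM in C, 107 ± 14.4 in AS, 125 ± 16.7 in RS3 and 141 ± 20.1 in RS7 rats. The log2 fold changes to RS7 were 0.38 ± 0.118 from C and 0.39 ± 0.117 from AS.

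Zfp365 (ENSRNOG00000000638) had 1016 to 3507 counts per rat. The C rats had 165, 135, 154, 165 and 174 CPM, and the AS rats had 193, 172, 183, 157 and 157 CPM. The RS3 rats had 181, 199, 179, 151 and 186 CPM, and the RS7 rats had 189.93, 195, 167, 221 and 186 CPM. All groups overlapped, and of the RS7 rats only rat 4 lay below the highest C rat. Unlike the other 4 genes, Zfp365 had its lowest mean in the C group (159 ± 14.9 CPM), with 172 ± 15.9 in AS, 179 ± 17.8 in RS3 and 192 ± 19.6 in RS7 rats. The log2 fold change was 0.27 ± 0.0804 from C to RS7 and 0.15 ± 0.08 from AS to RS7.

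Zfp871 (ENSRNOG00000004947) showed the widest separation on the fewest reads, 27 to 168 per rat, where counting alone gives a coefficient of variation of about 10.1%. The C rats had 5.71, 3.59, 5.45, 5.44 and 7.25 CPM, and the AS rats 6.69, 5.3, 5.37, 4.17 and 4.83 CPM. The RS3 rats had 9.08, 9.2, 8.9, 6.97 and 8.94 CPM, and the RS7 rats 9.47, 11.3, 8.19, 9.72 and 13.1 CPM. Every RS7 rat stood above every C and AS rat, and every RS3 rat above every AS rat. RS3 rat 11 was the only RS3 rat inside the range of the C group. Means were 5.49 ± 1.3 CPM in C, 5.27 ± 0.928 in AS, 8.62 ± 0.93 in RS3 and 10.4 ± 1.91 in RS7 rats. The level in the RS7 group was 1.85-fold that of the C group (log2 0.89 ± 0.146) and 1.95-fold that of the AS group (log2 0.96 ± 0.145), and from AS to RS3 the log2 fold change was 0.71 ± 0.149.

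Individual rats tended to stand low or high for several of the genes. RS3 rat 11 had the lowest level of its group for all 5 genes, and C rat 21 was lowest in its group for Csrnp3, Zmat4, Zfp365 and Zfp871. AS rat 13 was highest in its group for every gene but Zmat4, for which AS rat 15 was higher. RS7 rat 4 was highest in its group for Myt1l and Csrnp3 and lowest for Zfp365 and Zfp871.

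In the comparisons the selection used, the number of genes called by edgeR (quasi-likelihood, at an adjusted p of 0.05 or less after Benjamini-Hochberg) was 1 of the 5 in C versus RS7 (Zfp871), 0 in AS versus RS3 and 2 in AS versus RS7 (Csrnp3 and Zfp871), all higher in the group with more exposures. Over all genes tested, 0.111%, 0% and 1.19% were called higher in these comparisons. Groups did not overlap, with the more exposed group higher, for 2 genes in C versus RS7 (Zmat4 and Zfp871), 1 in AS versus RS3 (Zfp871) and 2 in AS versus RS7 (Csrnp3 and Zfp871), against 2.06%, 0.383% and 2.39% of all genes. Since these contrasts chose the genes, nothing is read from these counts. The median log2 fold change of the 5 genes was 0.27 in C versus RS7, 0.22 in AS versus RS3 and 0.39 in AS versus RS7, where the medians over all genes were -0.01, -0.0001 and -0.01.

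The call of Zfp871 in AS versus RS7 held in all 28 alternatives, with a log2 fold change of 0.87 to 1.07 as AS and RS7 rats were left out in turn. The other calls were lost in some settings. The call of Zfp871 in C versus RS7 was lost without C rat 19 (log2 0.90), C rat 21 (0.79), RS7 rat 3 (0.86) or RS7 rat 6 (0.79). It was also lost without C rats 21 and 22 and RS7 rat 4 together (0.84), a choice made after the values were seen. In each of these settings 0 of all genes were called, and with all retained rats the log2 fold change was 0.89. The call of Csrnp3 in AS versus RS7 was lost without any of AS rats 14 (log2 0.48), 16 (0.48) and 17 (0.52) and RS7 rats 3 (0.52), 4 (0.44) and 6 (0.45). In AS versus RS3, 2 of the 5 genes were at an unadjusted p under 0.05, as were 747 of all 16202, and the DESeq2 Wald test also called 0. The DESeq2 Wald test called 3 of the 5 genes in C versus RS7 (Zmat4, Zfp365 and Zfp871) and 4 in AS versus RS7 (all but Zfp365). It called more of all 16202 genes than edgeR did, 419 against 24 in C versus RS7 and 568 against 270 in AS versus RS7.

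**Figure D2:**
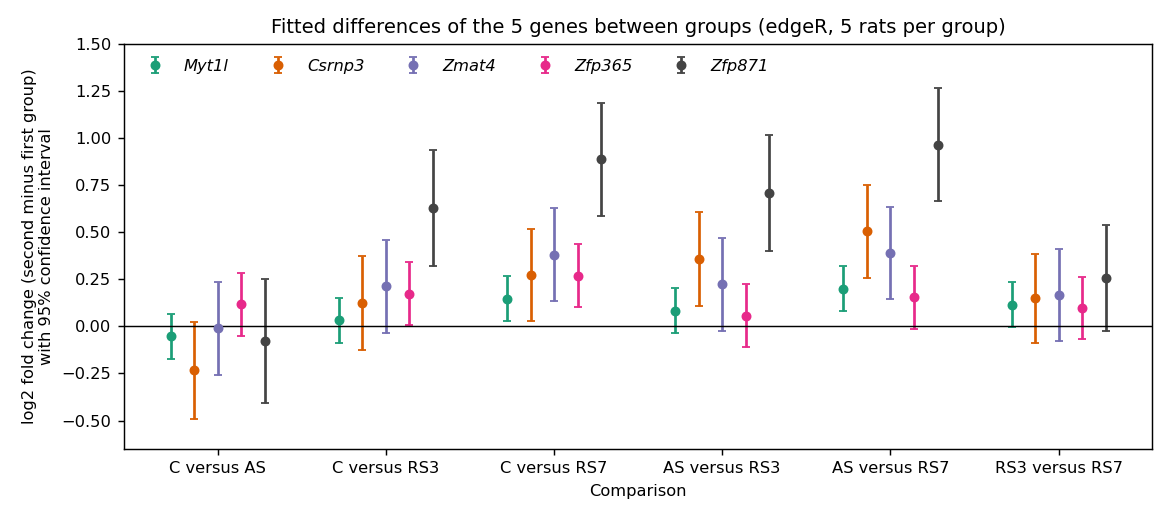
Log2 fold change (vertical axis) of each gene in the 6 group comparisons (horizontal axis), the group with more exposures minus the other, fitted by edgeR with 5 rats per group. Bars are 95% confidence intervals, not adjusted for the number of genes tested. The genes were chosen by C versus RS7, AS versus RS7 and AS versus RS3, so the intervals there are a description. The intervals of Zfp871 lie above 0 wherever RS3 or RS7 rats are set against C or AS rats, and those of all 5 genes do so in C versus RS7. In C versus RS3, Zfp871 did not pass edgeR's test (adjusted p = 0.18).

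The other 3 comparisons were not used to choose the genes, although they share rats with those that were. The choice can therefore also bear on the differences in them. In C versus AS, which asks what a single exposure left behind a day later, edgeR called 0 of the 5 genes and 0% of all genes higher. None of the 5 was at an unadjusted p under 0.05, where 1625 of all 16202 genes were, and DESeq2 and limma-voom also called 0. Csrnp3 had the largest difference, a log2 fold change of -0.23 (95% confidence interval -0.49 to 0.02, edgeR adjusted p = 0.525). It was -0.13 without C rat 22, and with the share taken by the 10 most abundant genes as covariate it was -0.12 while Zfp871 had -0.24. Zfp365 had the only positive difference (0.12, interval -0.05 to 0.28, edgeR adjusted p = 0.621). Myt1l (-0.05), Zmat4 (-0.01) and Zfp871 (-0.08) were close to 0, with edgeR adjusted p of 0.776, 0.986 and 0.904. The interval of Zfp871, -0.41 to 0.25, was wide. The groups overlapped for all 5 genes, and 0.512% of all genes had all AS rats above all C rats.

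In C versus RS3, edgeR again called 0 of the 5 genes and 0% of all genes higher. Zfp365 and Zfp871 were at an unadjusted p under 0.05, as were 2639 of all 16202 genes. Limma-voom called 0 of the 5 and 0 of all genes. DESeq2 called Zfp871 alone of the 5, and 38 of all 16202 genes. Zfp871 stood 1.55-fold higher in RS3 rats, with a log2 difference of 0.63 ± 0.15 (interval 0.32 to 0.94), and did not pass edgeR's test (adjusted p = 0.18). Its adjusted p was 0.0484 by DESeq2 and 0.186 by limma-voom, and its log2 fold change was 0.48 when the share taken by the 10 most abundant genes entered as covariate (edgeR adjusted p = 0.985). Zmat4 (0.21, edgeR adjusted p = 0.374), Zfp365 (0.17, adjusted p = 0.29), Csrnp3 (0.12, adjusted p = 0.635) and Myt1l (0.03, adjusted p = 0.819) had smaller differences. The groups overlapped for each of the 5, while in 1.22% of all genes every RS3 rat exceeded every C rat.

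The choice of the genes drew partly on these same RS7 rats, so positive signs in RS3 versus RS7 were favoured in advance and are not read as support. In RS3 versus RS7, all 5 log2 fold changes were positive, from 0.10 for Zfp365 to 0.26 for Zfp871, where 48.68% of all genes were above 0. They were small enough for 1 rat to move them by over 1.5 times: without RS7 rat 5, Zfp365 had 0.039 and Zmat4 0.078, without RS7 rat 6 Zfp871 had 0.16, and without RS3 rat 11 Csrnp3 had 0.077. EdgeR called 0 of the 5 genes and 0% of all genes higher. None was at an unadjusted p under 0.05, where 1218 of all 16202 genes were, and DESeq2 and limma-voom called 0. The edgeR adjusted p lay between 0.67 for Myt1l and 0.783 for Zfp365. The interval for Zfp871 ran from -0.02 to 0.54. The RS3 and RS7 groups overlapped for all 5, and 0.87% of all genes had all RS7 rats above all RS3 rats. On the log2 scale the RS3 mean stood at 73.6% of the way from AS to RS7 for Zfp871, 69.2% for Csrnp3, 56.9% for Zmat4, 42.8% for Myt1l and 36.6% for Zfp365. AS versus RS7 helped to choose the genes, and the order of these shares depends on AS being the base. The mean log2 CPM of Zfp365 was lower in C (7.306) than in AS (7.425) rats. That of Csrnp3 was higher in C (3.527) than in AS (3.306) rats.

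The 4 left-out rats did not take part in the selection and give 1 value per group, with no test. Their CPM values were scaled over all 24 rats. From C rat 20 to RS7 rat 1, Myt1l went from 144 to 168 CPM, Csrnp3 from 11.6 to 14.1, Zmat4 from 92.3 to 145, Zfp365 from 134 to 203 and Zfp871 from 3.72 to 6.2. All 5 genes were thus higher in the RS7 rat, by a median log2 difference of 0.59, where 49.7% of all genes were higher. The 10 most abundant genes took 25.1% of the counts in C rat 20 and 33.8% in RS7 rat 1. They took 46.3% in AS rat 18 and 24.9% in RS3 rat 8. All 4 left-out rats had more Myt1l than any retained rat on the same scale (highest 138.52 CPM, RS7 rat 4). The part of library quality in these differences was not tested. AS rat 18, which had 4744531 counts in all and 12 reads of Zfp871, gave a less even picture. It had 169 CPM of Myt1l and 225 CPM of Zfp365, above RS7 rat 1 for both, and 11.5, 91.1 and 4.6 CPM of Csrnp3, Zmat4 and Zfp871, below it. RS3 rat 8, with 140.3, 14.7, 106, 157 and 5.46 CPM of Myt1l, Csrnp3, Zmat4, Zfp365 and Zfp871, lay below RS7 rat 1 for 4 genes and above it for Csrnp3. With all 24 rats in the fit, the AS to RS3 difference of Zfp365 turned from 0.06 to -0.04 on the log2 scale.

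**Figure D3:**
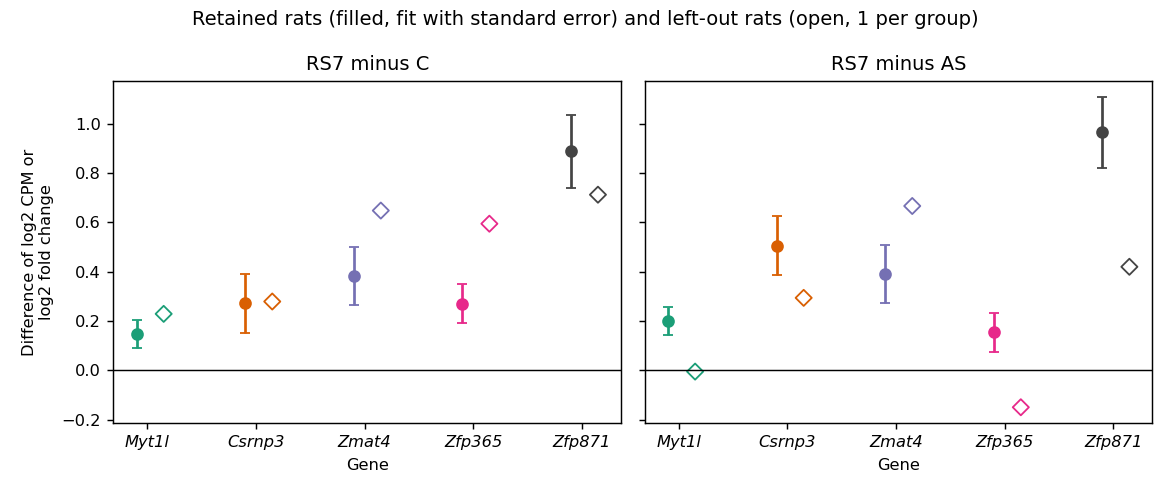
Differences on the log2 scale (vertical axis) for each gene (horizontal axis), RS7 minus C on the left and RS7 minus AS on the right. Filled points are fits over 5 retained rats per group with the standard error, and open diamonds are the difference between 1 left-out rat per group, which lies above 0 for all 5 genes on the left and for Csrnp3, Zmat4 and Zfp871 on the right.

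Within groups, the levels of Zmat4, Zfp365 and Zfp871 were correlated from rat to rat. After each group's mean was removed from log2 CPM (prior count of 2), Zmat4 and Zfp365 moved together over the 20 rats with a Pearson r of 0.905 (permutation within groups, adjusted p = 0.0002) and a Spearman rho of 0.832 (adjusted p = 0.001). Without the 2 rats farthest from the median of the first-named gene, here Zmat4, r was 0.863. Of all genes, 0.531% correlated at least as highly with Zmat4. Zfp365 and Zfp871 had r = 0.732 (permutation adjusted p = 0.0062) and rho = 0.642 (adjusted p = 0.0261), and 0.595 without 2 rats, and 3.92% of all genes were at least as highly correlated with Zfp365. Zmat4 and Zfp871 had r = 0.673 (permutation adjusted p = 0.0173) and rho = 0.537 (adjusted p = 0.0753), with 4.85% of all genes at least as high with Zmat4. Myt1l and Csrnp3 had r = 0.506 (permutation adjusted p = 0.0448) and rho = 0.465 (adjusted p = 0.0821). Without 2 rats r fell to 0.353, so that this relation depends in part on them, and no test was run without them. Of all genes, 7.2% correlated at least as highly with Myt1l. The other 6 of the 10 pairs, from 0.0885 for Csrnp3 with Zfp365 to 0.503 for Myt1l with Zfp365, did not pass the adjusted test.

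The share taken by the 10 most abundant genes correlated with opposite signs. Its within-group r was 0.363 with Myt1l and 0.345 with Csrnp3, but -0.305 with Zmat4, -0.488 with Zfp365 and -0.516 with Zfp871, none past an adjusted p of 0.05 (lowest 0.181, permutation, 10 relations with this share and the total count). With this share removed, Zmat4 and Zfp365 had r = 0.91, Myt1l and Zfp365 went from 0.503 to 0.837, and Csrnp3 and Zfp871 from 0.43 to 0.756. Zfp365 and Zfp871 fell from 0.732 to 0.642, Zmat4 and Zfp871 from 0.673 to 0.633, and Myt1l and Csrnp3 from 0.506 to 0.435. The remaining pairs rose. The part of this share in the correlations was not tested.

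**Figure D4:**
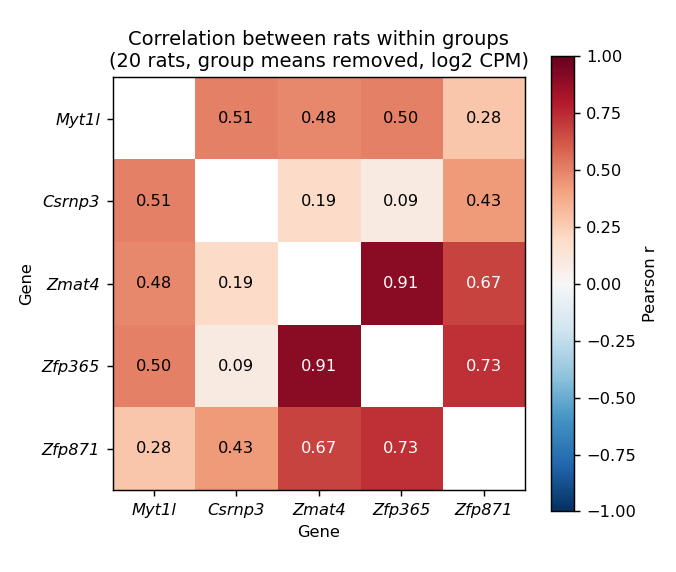
Pearson r between the genes (both axes) over the 20 retained rats, from log2 CPM with the mean of each group removed. Colour gives r from -1 to 1, with the highest value between Zmat4 and Zfp365 and the lowest between Csrnp3 and Zfp365.

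Of 2 markers of excitatory neurons, Slc17a6 had a matched identifier. This gene, which encodes the vesicular glutamate transporter of subcortical excitatory neurons, correlated within groups with Zfp365 (r = 0.946, rho = 0.946, permutation adjusted p = 0.00015 for both, 30 relations) and with Zmat4 (r = 0.886, adjusted p = 0.000225, rho = 0.845, adjusted p = 0.000525). Without the 2 rats farthest from the median of the marker these were 0.917 and 0.838. With Zfp871 r was 0.673 (permutation adjusted p = 0.0122, rho = 0.607, adjusted p = 0.0362, 0.527 without 2 rats), with Myt1l 0.549 (adjusted p = 0.0828) and with Csrnp3 0.0908. The thalamic pair Lef1 and Rora correlated with Zmat4 (r = 0.893, rho = 0.919, permutation adjusted p = 0.00015 for both), Zfp365 (r = 0.747, adjusted p = 0.00612, rho = 0.728, adjusted p = 0.0099) and Myt1l (r = 0.645, adjusted p = 0.0275, rho = 0.63, adjusted p = 0.0362), and with Zfp871 by r only (0.553, adjusted p = 0.0451, rho = 0.456, adjusted p = 0.149). Without 2 extreme rats these were 0.853 for Zmat4, 0.591 for Zfp365, 0.557 for Myt1l and 0.323 for Zfp871, so that the last depends in part on those rats.

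A sum of markers of astrocytes, the glia that clear glutamate, had negative correlations with Zmat4, Zfp365 and Zfp871. Aqp4 (mean 1077 CPM in C rats) and Slc1a3 (753) weigh more in this sum than Slc1a2 (220), and the markers were not correlated singly. The summed level of Aqp4, Slc1a2 and Slc1a3, 3 of 7 astrocyte markers, had r = -0.838 with Zfp365 (permutation adjusted p = 0.000225, rho = -0.803, adjusted p = 0.000525), -0.712 with Zmat4 (adjusted p = 0.0103, rho = -0.609, adjusted p = 0.0362) and -0.696 with Zfp871 (adjusted p = 0.0251, rho = -0.609, adjusted p = 0.0418), but -0.229 with Myt1l and 0.00346 with Csrnp3. Without 2 extreme rats r was -0.798 for Zfp365, -0.597 for Zmat4 and -0.458 for Zfp871. No member passed with the summed inhibitory markers Gad1, Gad2 and Slc32a1 (r from -0.332 to 0.109), the neuronal Snap25, Nefl and Nefm (0.135 to 0.516) or the hypothalamic list (0.123 to 0.338). The symbols of these markers come from the study's lists of differentially expressed genes, so the markers were themselves selected for group differences.

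The marker levels also differed between the groups, and these differences were not tested here. Slc17a6 had a median of 597 CPM (486 to 652) in C, 582 (512 to 728) in AS, 719 (562 to 759) in RS3 and 742 (661 to 878) in RS7 rats. Lef1 and Rora together had 90.5 CPM (67.5 to 105) in the C group and 122 CPM (101 to 144) in the RS7 group. The inhibitory sum went from 848 CPM (587 to 996) in the C group to 520.1 CPM (479 to 639) in the RS7 group, and its AS and RS3 medians were 816 and 642 CPM. The astrocyte sum had no steady order, with medians of 2000.0 CPM (1888 to 2295) in C, 1889 (1751 to 1945) in AS, 1793 (1790.0 to 1895) in RS3 and 1908 (1751 to 2033) in RS7 rats. Its genes differed in direction, since from C to RS7 the mean of Aqp4 went from 1077 to 943 CPM and that of Slc1a3 from 753 to 702 CPM, but that of Slc1a2 from 219.6 to 252 CPM. The neuronal sum of Snap25, Nefl and Nefm, 3 of 10 neuronal markers, had medians of 2610.0 CPM (2439 to 2725) in C, 2498 (2224 to 2631) in AS, 2678 (2576 to 3066) in RS3 and 2897 (2670.0 to 3191) in RS7 rats. Oligodendrocyte, oligodendrocyte precursor, microglial and endothelial markers had no matched identifier and were not analysed here. The part of cell composition and of the placing of the tissue cut in the differences of the 5 genes was not tested.

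The genes with a symbol whose log2 CPM was most like that of Zmat4 over the 20 rats were Rap1gds1 (r = 0.985), Pdp1 (0.982) and Nudt4 (0.976), and for Zfp365 Clstn1 (0.979), Rims3 (0.976) and Dnajc6 (0.967). Rims3 and Dnajc6 encode a presynaptic active zone protein and auxilin, which uncoats clathrin vesicles. Prex2 (0.953), Fzd3 (0.904), a Wnt receptor, and Arfgef3 (0.9) were most like Zfp871. For Myt1l the nearest were Mef2a (0.913), a transcription factor, Gabbr2 (0.911), a GABA B receptor subunit, and Fgf13 (0.904), and for Csrnp3 the kinase genes Ttbk2 (0.902) and Taok1 (0.902) and Rictor (0.873). These values hold the group differences as well as the spread within groups. The within-group values for these genes lay between 0.746 for Rictor and 0.982 for Rap1gds1. The 731 symbols come from the study's lists of differentially expressed genes, so the nearest genes were sought among genes selected for group differences. Some genes without a symbol were closer, such as 4 that stood above Nudt4 for Zmat4.

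Of the other members of the MYT1, CSRNP and ZMAT families, none had a matched identifier, nor did any of 6 genes that Myt1l is known to repress. Of 11 other factors in the study's ranking, 3 had a matched identifier, because the study had listed them as differentially expressed in these same rats. Their directions and calls are therefore a description, and 1.19% of all genes were called higher from AS to RS7. All 3 had positive log2 fold changes from AS to RS7. Rorb, a nuclear receptor, went from 21.3 ± 2.49 to 28.7 ± 2.23 CPM (log2 0.44 ± 0.0902) and Ash1l, a histone methyltransferase, from 199 ± 6.65 to 234 ± 12.4 CPM (0.23 ± 0.0552), and both were called. Zbtb18, a zinc finger repressor, went from 36.6 ± 1.19 to 42.2 ± 2.63 CPM (0.21 ± 0.0546) and was not called. All 3 were also lower in AS than in C rats (median log2 -0.12, none called), and from C to RS7 all 3 were above 0 (median 0.18) with none called by edgeR.

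Among 9 other zinc finger genes with a symbol, directions were mixed. From AS to RS7, 6 had positive and 3 negative log2 fold changes (median 0.13), with 1 called higher, Zfp148 (0.30 ± 0.0681), and 1 called lower, Zbtb7c (-0.62 ± 0.139, from 7.48 ± 0.757 to 4.83 ± 0.828 CPM). Zfp384 (-0.18 ± 0.0816) and Zfpm2 (-0.40 ± 0.114) were not called, and Zfp958 was nearly level at 0.00260 ± 0.0788. From C to RS7, 5 of the 9 were above 0 and none was called by edgeR. All of these genes also carry a symbol because the study listed them, so the counts do not describe zinc finger genes at large.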

How the data were processed

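The study measured polyadenylated RNA from 24 rats. The authors trimmed the paired 75-base reads (Trimmomatic 0.36), mapped them to rn6 (HISAT2 2.0.5), and deposited raw counts per Ensembl gene made with featureCounts. Strand and multiple-mapping settings are not given in the sources used here. No symbols accompany the identifiers: 731 came from the study's gene lists, and RefSeq names matched 0. Rats left out by the study were found by recomputing the scaled mean of 808 listed genes for 1296 sets: 1 set matched all (relative tolerance 1e-07) and the next 0.

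Counts were analysed in R 4.3.3 with edgeR 4.0.16: filterByExpr (minimum count 10, 16202 genes), TMM, 1 model of 4 groups, robust quasi-likelihood test, Benjamini-Hochberg adjustment over all genes at 0.05. Retained libraries held 8087697 to 16947298 counts. Correlations used 100000 permutations within groups, adjusted within families of 10, 10 and 30 relations. Alternatives were the DESeq2 1.42.0 Wald test, limma-voom 3.58.1 with sample quality weights, DESeq2 size factors, no filter, all 24 rats, the share taken by the 10 most abundant genes as covariate, and after seeing the data without the 3 rats highest in it, only the groups compared, and leaving out each rat. The tests were tested on simulated data. The genes, lists and motifs were chosen with earlier results of these data known. Named genes are the 5 members, the 3 genes with a symbol most like each, and listed factors, zinc finger genes and markers. Rats within a group are separate animals.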

Additional observations from a re-analysis of the deposited data

Results flagged for a closer look

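RS3 rat 11 had 6.967 CPM of Zfp871, apart from the other 4 RS3 rats, of which the nearest had 8.904 CPM. The gap was 0.866 of the range of the group, above Dixon's 95% critical value of 0.71 for 5 samples. It was the only one of 20 groups of values tested (5 genes in 4 groups) that exceeded it, and chance alone gives about 1 in 20. The same rat had the lowest level of its group for Myt1l, Csrnp3, Zmat4 and Zfp365. Without it, the C to RS3 log2 fold change of Zfp871 was 0.69 (edgeR adjusted p = 0.217), against 0.63 with it.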

How the results depend on the processing

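No paired analysis was possible because each rat number occurs in 1 group only. Under the alternatives, 813 log2 fold changes of the 5 genes kept their direction and their side of the threshold, 11 lost a call, 10 gained one and 6 changed sign, all 6 near 0. Those in C versus AS were Zmat4 without C rat 23 (0.034), C rat 24 (0.025), AS rat 16 (0.037) or AS rat 17 (0.041, range over rats left out -0.090 to 0.041) and Zfp871 without C rat 24 (0.037, range -0.19 to 0.037), and the last was Zfp365 in AS versus RS3 with all 24 rats (-0.040). The cause was not tested.

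The number of the 5 genes called in C versus RS7 was 1, and 3 by DESeq2, 0 without the 3 rats highest in the share taken by the 10 most abundant genes, and 0 to 2 when each rat was left out in turn, with 0 when C rat 19 or 21 or RS7 rat 3 or 6 was absent and 2 without RS7 rat 4. In AS versus RS7 it was 2, 4 by DESeq2 and by limma-voom, and 1 to 3 with each rat left out. In C versus RS3 it was 0, and 1 by DESeq2.

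Over all genes, the number called in C versus RS7 was 24, and 419 by DESeq2, 103 by limma-voom, 64 without the filter, 46 with all 24 rats, 11 with the covariate of that share, 0 without those 3 rats and 0 to 560 with each rat left out (560 without RS7 rat 4). In AS versus RS7 it was 270, and 568 by DESeq2, 772 by limma-voom, 129 with all 24 rats, 441 with the covariate, 433 with only the groups compared and 46 to 403 with each rat left out (46 without AS rat 17). In C versus AS the covariate gave 1 gene, in AS versus RS3 DESeq2 gave 1, and in C versus RS3 DESeq2 gave 38 and leaving out rats 0 to 17, where edgeR with all retained rats gave 0 in each. Depth limits Zfp871 and Csrnp3 most, since counting alone gives coefficients of variation of 10.1 and 8.08%.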
